A study of Mus musculus with 6 samples.

Results

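The genes described here are Trp53, which codes for the tumour suppressor p53, and 9 genes of its response or of the related GADD45 stress response: Cdkn1a, Mdm2, Ccng1, Sesn1, Phlda3, Trp53inp1, Gadd45a, Gadd45b and Zmat3. They were found by mouse symbol through the Ensembl identifiers of the count table, and all 10 were present among its 24379 genes and passed the filter on low counts. RNA had been sequenced from RAW264.7, a line of macrophage-like cells taken from a mouse with a tumour that Abelson leukaemia virus had induced. In 3 libraries the cells were labelled as treated for 18 h with HFCS, high-fructose corn syrup, which mixes free fructose and glucose. The dose is 140 mM in the sample titles and 170 mM in the source names. The other 3 libraries are labelled WT, with the same time, and are called control here; what these cells received is not stated in the labels. The labels do not tell whether each replicate was its own culture, so p-values cover only the spread among these libraries, which can be technical.

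Total counts were 13108485 to 15340255 per library, and the groups' totals overlapped. All pairs of replicates differed by more than sampling noise. The chi-square statistic divided by its degrees of freedom was 2.6 to 6.64 among HFCS libraries. It was 3.77 between control replicates 2 and 3 but 14 and 16.7 between control replicate 1 and those 2 libraries, so that control replicate 1 stood apart. Of 9 macrophage markers, summed levels were 2145 to 2178 CPM (counts relative to the TMM-corrected library size) in HFCS and 1843 to 1921 CPM in control libraries, with only Mertk below 1 CPM. The 15 markers of other cell types found in the table summed to 2.91 to 3.99 and 5.01 to 7.05 CPM, and none of them exceeded 3.38 CPM in any library. Pecam1 (mean 0.785 in HFCS against 2.87 CPM in control libraries) and Cdh5 (0.561 against 1.46 CPM) passed the test used below as lower in HFCS. The Cdh5 call was lost without HFCS replicate 3. Col1a1 did not pass, and the others were too low to test. Single macrophage markers passed the test used below in both directions. Fcgr1, Adgre1, Spi1, Itgam, Ptprc and Lyz2 were higher in HFCS libraries, by 1.56 down to 0.35 on the log2 scale. Csf1r (-0.67) and Cd68 (-0.42) were lower. Libraries carry the names of their labels here, and every direction depends on them. All 3 genes looked at that hypertonic medium is known to induce went against the labels, being lower in HFCS-labelled libraries. Akr1b3, for aldose reductase, had 208 ± 12 CPM there against 7435 ± 381 CPM in the control-labelled libraries (mean ± SD, n = 3 each). Slc5a3, for a myo-inositol transporter, had 146 ± 5.42 against 562 ± 60.9 CPM, and Slc6a12, for a betaine transporter, had 131 ± 4.21 against 450 ± 21.2 CPM. A swap of the group labels was not tested and would reverse every direction given here.

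The p53 protein is a transcription factor that is held low by the ubiquitin ligase MDM2 and rises when DNA is damaged or cells are stressed. It then raises genes that stop the cell cycle, repair DNA, limit growth signalling or promote cell death, and it also raises Mdm2, which closes a feedback loop. The level of p53 is set mainly through protein stability, so the Trp53 message is a limited guide to p53 activity. GADD45 proteins are small acidic stress proteins that bind cell cycle kinases, PCNA and the kinase MAP3K4. Gadd45a is known as a p53 target, while Gadd45b is known for its response to NF-kB and other cytokine signals.

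Promoter sequences from RefSeq (GRCm38.p6, the same assembly as mm10) were found for 8 of the 10 members, all but Trp53inp1 and Zmat3, in 10 windows. The p53 half-site, the 10-base element of which p53 binds a pair, was searched on both strands in the 250 bases before each start. It matched in 6 of the 10 windows, belonging to Trp53, Cdkn1a, Mdm2, Ccng1, Sesn1 and Gadd45a, and in 7.13% of all 32851 windows. Windows of Phlda3 and Gadd45b held no match. The NF-kB site was in 7.25% of all windows, the AP-1 site TGANTCA in 6.75% and the cAMP response element TGACGTCA in 1.55%, and none of these 3 was in a member's window. The TATA box, searched as TATAAA, was in 12.4% of all windows and in those of Trp53 and Gadd45b. The E-box, searched as CACGTG, was in 6.02% of all windows and in that of Gadd45b. A match is a description of the letters and not evidence of binding.

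Of the 4 stretches that follow, Cdkn1a and Ccng1 are shown because both hold half-sites and Cdkn1a passed the test while Ccng1 did not, and the GADD45 pair because their messages moved in opposite directions. They run 5′ to 3′ on the gene's strand and stop where the annotated gene begins. Capitals mark matches without a mismatch. These are p53 half-sites in the first 2, and CACGTG and TATAAA in Gadd45b, and none falls in the stretch of Gadd45a. In Ccng1 the 10 bases directly before the capitals fit the half-site in all but the fifth letter and are not marked.
Cdkn1a (chr17:29090729-29090975, plus strand): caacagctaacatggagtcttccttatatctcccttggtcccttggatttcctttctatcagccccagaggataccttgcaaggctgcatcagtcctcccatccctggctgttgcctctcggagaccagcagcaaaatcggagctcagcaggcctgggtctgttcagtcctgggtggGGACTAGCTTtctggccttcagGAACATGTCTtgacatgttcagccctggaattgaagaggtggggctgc
Ccng1 (chr11:40755312-40755536, minus strand): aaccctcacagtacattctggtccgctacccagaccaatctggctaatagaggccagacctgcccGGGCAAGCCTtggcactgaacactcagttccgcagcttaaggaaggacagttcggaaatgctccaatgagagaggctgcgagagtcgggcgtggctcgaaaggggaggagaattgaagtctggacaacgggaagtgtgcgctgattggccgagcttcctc
Gadd45a (chr6:67037458-67037657, minus strand): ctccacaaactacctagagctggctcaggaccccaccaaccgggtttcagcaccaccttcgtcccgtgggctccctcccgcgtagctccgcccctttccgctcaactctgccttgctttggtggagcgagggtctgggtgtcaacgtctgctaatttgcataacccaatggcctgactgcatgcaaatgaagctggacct
Gadd45b (chr10:80929841-80930072, plus strand): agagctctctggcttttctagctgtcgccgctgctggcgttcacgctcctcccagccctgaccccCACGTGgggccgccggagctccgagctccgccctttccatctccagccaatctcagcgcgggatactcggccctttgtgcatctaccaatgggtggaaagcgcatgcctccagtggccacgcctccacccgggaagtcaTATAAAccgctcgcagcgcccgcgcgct
The Gadd45a half-site, GGGCTAGCCC, begins 40 bases before the RefSeq start, inside the longer annotated gene (chr6:67037438-67037447). The Cdkn1a window holds the matches GGACTAGCTT and GAACATGTCT, which begin 73 and 51 bases before the start. These 2 matches do not adjoin each other. The 10 bases directly after GAACATGTCT fit the half-site in all but the first letter and are unmarked, because the search allowed no mismatch. The search does not tell which of these p53 binds as a pair. In Mdm2 the match was GAACTTGCCT, in Trp53 GGACTTGCCC and in the second window of Sesn1 AAGCTTGTTT.

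Trp53, Cdkn1a, Phlda3 and Gadd45a were higher and Sesn1 and Gadd45b lower in the HFCS-labelled libraries, while Mdm2, Ccng1, Trp53inp1 and Zmat3 did not pass the test. These 6 calls among 10 members stand beside 44.9% of all 14360 tested genes. The 4 higher calls stand beside 22.4% and the 2 lower ones beside 22.5%. Scaling by library size alone made 60.2% of all calls higher in place of 50.0%. The members' median log2 fold change was 0.05, against 0.00 for all tested genes, because the changes went both ways, from -1.87 to 1.76. The libraries of the groups did not overlap for 8 members, 5 higher and 3 lower in HFCS, beside 54.5% of all tested genes, 27.4% higher and 27.2% lower.

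**Figure D1:**
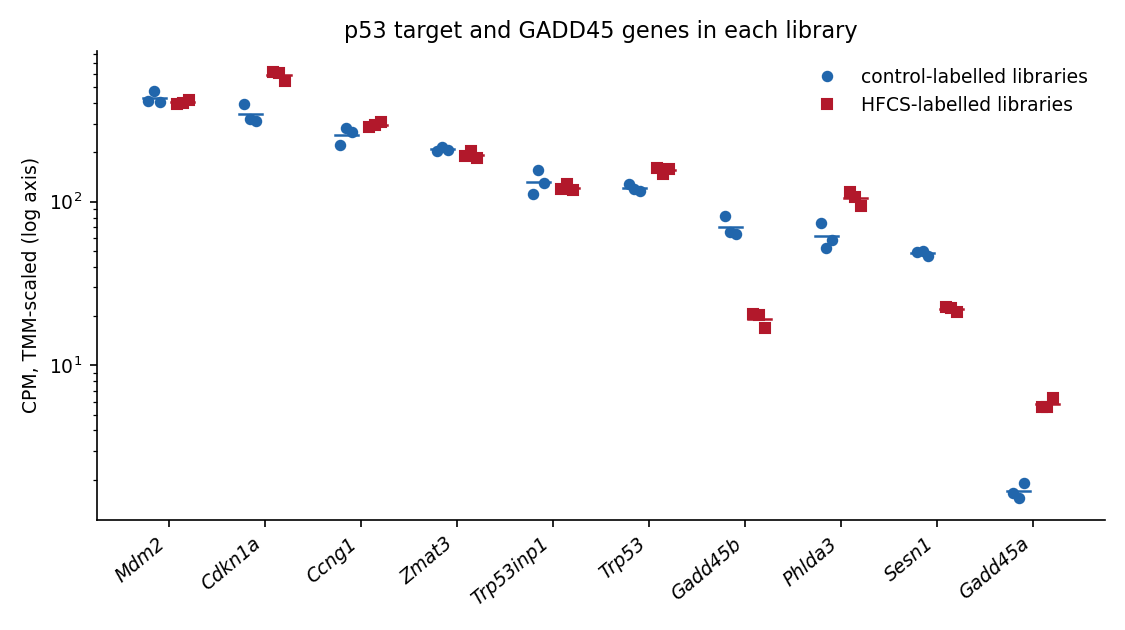
CPM of each member in each library, on a log axis; points are libraries, control-labelled in blue and HFCS-labelled in red, and lines are group means. Gadd45b and Sesn1 lie lower and Cdkn1a, Phlda3, Trp53 and Gadd45a higher in all 3 HFCS-labelled libraries than in any control-labelled one.

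Trp53 (ENSMUSG00000059552, mm10 chromosome 11, 69580359 to 69591873, plus strand) had 161, 148 and 159 CPM in HFCS replicates 1 to 3 and 129, 119 and 116 CPM in control replicates 1 to 3. All HFCS-labelled libraries lay above all control-labelled ones. The log2 fold change was 0.36 ± 0.07 (SE), or 1.29-fold, with an edgeR adjusted p of 0.00181. A processed copy listed as Trp53-ps summed to 106 counts in HFCS and 52 in control libraries, against 6945 and 5125 for Trp53.

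Mdm2 (ENSMUSG00000020184, chromosome 10, 117688875 to 117710758, minus strand), the ligase gene and classic feedback target, had 395, 402 and 417 CPM in HFCS and 410, 474 and 409 CPM in control libraries. The groups overlapped, with control replicate 2 the highest of the 6. Its log2 fold change was -0.09 ± 0.07 (edgeR adjusted p = 0.336). Within each library the log2 ratio of Mdm2 to Trp53 counts was 1.37 ± 0.08 (mean ± SD) in HFCS and 1.83 ± 0.16 in control libraries, a difference of -0.45 with groups that did not overlap. This ratio needs no scaling between libraries. Its two-sided exact permutation p was 0.1 (adjusted p = 0.1 over 4 pairs of members), the smallest that 3 libraries against 3 allow.

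Cdkn1a (ENSMUSG00000023067, chromosome 17, 29090976 to 29100727, plus strand) codes for p21, the inhibitor of cyclin-dependent kinases through which p53 halts the cell cycle. It had 619, 615 and 546 CPM in HFCS and 397, 320 and 312 CPM in control libraries. Control replicate 1 was the highest control library but lay below every HFCS-labelled one. The log2 fold change was 0.79 ± 0.10, or 1.73-fold (edgeR adjusted p = 1.0e-04), and it was 0.73 to 0.91 with any 1 library left out. An antisense gene, AC167363.2, shares 273 exon bases with it and had 141 and 117 counts over the groups, against 26358 and 14508 for Cdkn1a. Relative to Trp53 counts in the same library, Cdkn1a stood at 1.92 ± 0.14 in HFCS and 1.49 ± 0.11 in control libraries on the log2 scale, a difference of 0.43 (two-sided exact permutation p = 0.1).

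Ccng1 (ENSMUSG00000020326, chromosome 11, 40748552 to 40755311, minus strand) codes for cyclin G1, which recruits phosphatase 2A to MDM2. It had 287, 292 and 306 CPM in HFCS and 222, 283 and 266 CPM in control libraries. The lowest HFCS-labelled library lay just above the highest control-labelled one. Its log2 fold change of 0.20 ± 0.09 did not pass (edgeR adjusted p = 0.0904). Without control replicate 2 it passed, at 0.27 (edgeR adjusted p = 0.0363). Without control replicate 1, the lowest library for this gene, it shrank to 0.11 and did not pass (edgeR adjusted p = 0.141). The ratio of Ccng1 to Cdkn1a was lower in HFCS, with log2 values of -1.01 ± 0.15 against -0.41 ± 0.37, a difference of -0.59 (two-sided exact permutation p = 0.1). HFCS replicate 3 and control replicate 1 were close together, at -0.84 each.

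Gadd45a and Gadd45b moved apart. Gadd45a (ENSMUSG00000036390, chromosome 6, 67035096 to 67037457, minus strand) had 5.57, 5.56 and 6.27 CPM in HFCS and 1.66, 1.54 and 1.91 CPM in control libraries. These levels rest on 75, 85 and 99 counts against 24, 21 and 27. The groups did not overlap, and the log2 fold change was 1.76 ± 0.21, or 3.39-fold (edgeR adjusted p = 8.2e-05). The antisense gene E230016M11Rik shares 337 exon bases with Gadd45a and summed to 62 counts in HFCS and 19 in control libraries. Since the strand setting is not given, reads of the pair cannot be told apart there.

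Gadd45b (ENSMUSG00000015312, chromosome 10, 80930073 to 80932204, plus strand) had 20.5, 20.2 and 17 CPM in HFCS and 82.1, 65.3 and 63.7 CPM in control libraries. Every control-labelled library held more than 3 times the level of any HFCS-labelled one. The log2 fold change was -1.87 ± 0.12, so that control libraries held 3.66 times as much of the message (edgeR adjusted p = 1.6e-06). The log2 ratio of Gadd45a to Gadd45b counts was -1.87, -1.86 and -1.44 in HFCS and -5.60, -5.37 and -5.04 in control libraries, a difference of 3.61 (two-sided exact permutation p = 0.1). As with any bulk sample, fewer cells that express a gene and less RNA of it per cell cannot be told apart.

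The remaining family gene, Gadd45g, did not pass, with 3.44 ± 0.922 against 3.67 ± 0.573 CPM (edgeR adjusted p = 0.763). Per kilobase of exon, the 3 genes summed to 18.3 ± 1.68 CPM in HFCS and 48.4 ± 6.02 CPM in control libraries. Gadd45b made up 66 ± 2.01% of that sum in HFCS and 91.4 ± 1.99% in control libraries. The share of Gadd45a was 18.1 ± 2.97% against 2.02 ± 0.358%, and that of Gadd45g 15.8 ± 2.89% against 6.59 ± 1.64%. Each of these comparisons had a two-sided exact permutation p of 0.1. Since the level of Gadd45g did not pass, a larger share also reflects the smaller Gadd45b part of the sum.

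**Figure D2:**
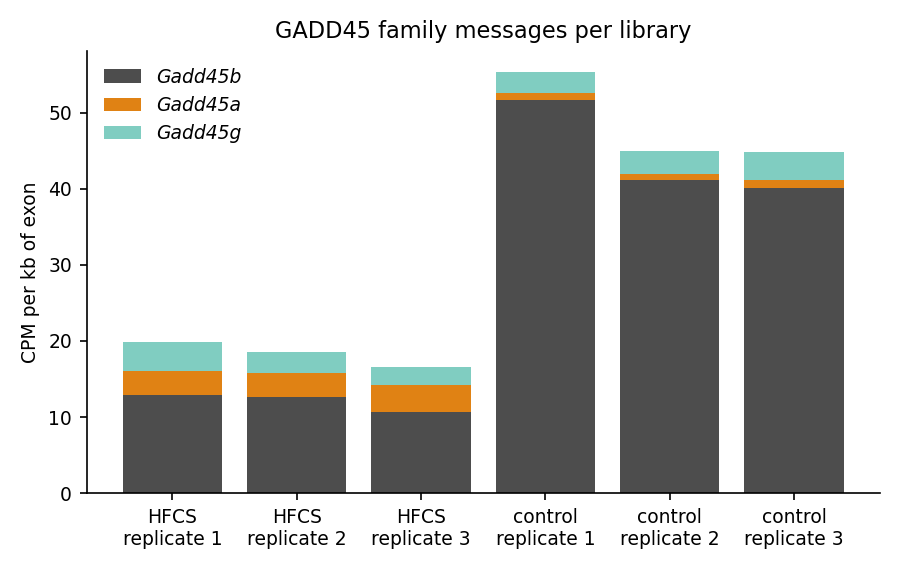
Levels of the 3 GADD45 genes in CPM per kilobase of exon, stacked for each library. The family sum is 16.5 to 19.9 in the HFCS-labelled and 44.9 to 55.3 in the control-labelled libraries. The Gadd45a part is larger in HFCS-labelled than in control-labelled libraries, and the Gadd45b part is smaller. Gadd45b is the largest part in every library.

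Sesn1 (ENSMUSG00000038332, chromosome 10, 41809935 to 41908424, plus strand) codes for sestrin 1, a stress protein that restrains the growth kinase complex mTORC1. It had 22.8, 22.4 and 21.1 CPM in HFCS and 49.5, 50.1 and 46.4 CPM in control libraries. The coefficient of variation was 3.94% in HFCS and 4.06% in control libraries, and the groups were far apart. The log2 fold change was -1.14 ± 0.09, or 2.2-fold higher in the control-labelled libraries (edgeR adjusted p = 4.8e-06). A same-strand gene in an intron of Sesn1, 9930024M15Rik, shares no exon base with it and summed to 27 counts in HFCS and 74 in control libraries. Its relative Sesn2, which other stress factors such as ATF4 also raise, went the other way, from 68.9 ± 7.23 in control to 112 ± 5.99 CPM in HFCS libraries (log2 fold change 0.70 ± 0.09, edgeR adjusted p = 1.1e-04).

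Phlda3 (ENSMUSG00000041801, chromosome 1, 135766119 to 135769136, plus strand) codes for a lipid-binding protein that competes with the kinase AKT at the membrane. Its levels were 114, 107 and 93.7 CPM in HFCS and 73.6, 52 and 58.2 CPM in control libraries. The groups did not overlap, although this gene had the widest control spread of the members, a coefficient of variation of 18.2%. The log2 fold change was 0.77 ± 0.12, or 1.71-fold (edgeR adjusted p = 5.1e-04).

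Trp53inp1 and Zmat3 did not pass. Trp53inp1 (ENSMUSG00000028211, chromosome 4, 11156431 to 11174379, plus strand), whose product aids p53 phosphorylation and autophagy, had 119, 129 and 117 CPM in HFCS and 112, 156 and 130 CPM in control libraries. Control replicate 1 was the lowest and control replicate 2 the highest of all 6, and the log2 fold change was -0.13 ± 0.11 (edgeR adjusted p = 0.36). Without control replicate 1 it passed, at -0.24 (edgeR adjusted p = 0.018). Zmat3 (ENSMUSG00000027663, chromosome 3, 32334792 to 32366014, minus strand), which codes for an RNA-binding splicing regulator, had 191, 204 and 184 CPM in HFCS and 205, 217 and 206 CPM in control libraries. Its groups did not overlap, yet the log2 fold change of -0.12 ± 0.07 did not pass (edgeR adjusted p = 0.172).

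**Figure D3:**
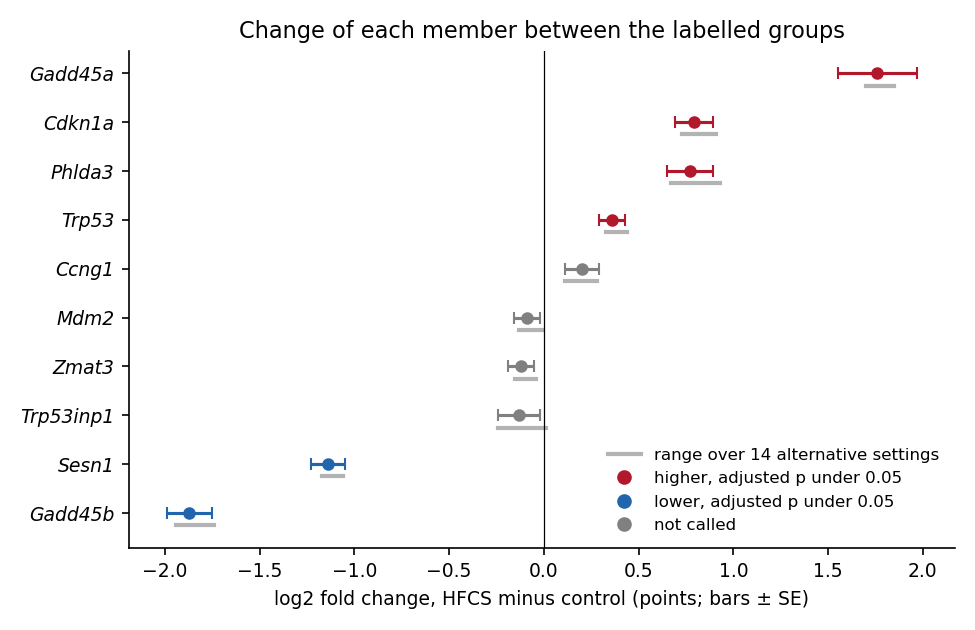
Log2 fold change of each member, HFCS minus control, as points with bars of ± SE; grey lines span the values under 14 other settings. Gadd45a (1.76) and Gadd45b (-1.87) lie at the ends, and the lines of Trp53inp1 alone reach both sides of 0.

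Control replicate 1 was the highest control library for Trp53, Cdkn1a, Phlda3 and Gadd45b and the lowest for Ccng1, Trp53inp1 and Zmat3. Over all tested genes it was the highest for 38.4% and the lowest for 40.2%. What set that library apart was not tested. With it left out, Cdkn1a stood at 0.91, Phlda3 at 0.93 and Gadd45b at -1.74 on the log2 scale, and all 3 passed.

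Per kilobase of exon, Cdkn1a was the most abundant member in both groups, at 96.6 ± 13.2 CPM in control and 167 ± 11.5 CPM in HFCS libraries. In control libraries the ranges of Cdkn1a, Mdm2 (84.8 ± 7.29) and Ccng1 (73.2 ± 8.92) overlapped from neighbour to neighbour. Gadd45b (44.3 ± 6.41) and Phlda3 (39.3 ± 7.14) followed with overlapping ranges. Below them came Trp53 (30 ± 1.7), then Trp53inp1 and Zmat3 with overlapping ranges, then Sesn1 (12.2 ± 0.496) and Gadd45a (0.966 ± 0.105). In HFCS libraries Cdkn1a stood clear of Ccng1 and Mdm2, whose ranges overlapped, and all other neighbours were apart. Gadd45b moved from position 4 of the 10 in control libraries to position 8 in HFCS libraries. The members took 0.197 ± 0.00376% of all counts in HFCS and 0.163 ± 0.0056% in control libraries (two-sided exact permutation p = 0.1). Cdkn1a, with 26358 counts in HFCS and 14508 in control libraries, weighs heavily in this share. With 4 members called higher, 2 lower and 4 not, the larger share was not a joint rise.

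Among the paralogues of the members, 3 of 10 tested genes rose, 2 fell and 5 did not pass, so that 50.0% were called beside 44.9% of all tested genes. Besides Sesn2, Trp53inp2 (0.39, an autophagy gene) and Zmat5 (0.73, a part of the minor spliceosome) rose. Cdkn1b, which codes for the kinase inhibitor p27, fell by 0.64 on the log2 scale, from 143 ± 2.35 to 91.8 ± 3.82 CPM (edgeR adjusted p = 2.9e-05), opposite to its relative Cdkn1a. Mdm4, the partner of MDM2 that blocks p53, had 666 ± 14.3 against 787 ± 70 CPM and a log2 fold change of -0.24 ± 0.07 (edgeR adjusted p = 0.0206). That call was lost with any single library left out except control replicate 1, at an edgeR adjusted p of 0.0535 without control replicate 3, 0.0556 without HFCS replicate 3, 0.0661 without HFCS replicate 2, 0.082 without control replicate 2 and 0.105 without HFCS replicate 1. Log2 fold changes of those that did not pass were -0.01 for Ccng2, 0.15 for Phlda1, -0.22 for Zmat1 and 0.03 for Zmat2, beside Gadd45g. Trp73, a sister gene of Trp53, summed to 11 counts in HFCS and 4 in control libraries and was too low to test. Sesn3, Trp63, Phlda2 and Cdkn1c were also listed but were not found by symbol in the count table.

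Other known p53 targets moved both ways. Of 33 tested, 15 rose, 4 fell and 14 did not pass, with a median log2 fold change of 0.26 against 0.00 for all tested genes. That is 57.6% called, beside 44.9% of all tested genes, of which 22.4% were higher and 22.5% lower. Under 14 other settings the higher calls of this list numbered 12 to 20 and the lower ones 3 to 5. Among called genes with a mean of at least 5 CPM and groups apart, the limits used for all lists here, the highest were Ltbr (1.14), the lymphotoxin receptor gene that NF-kB signalling also involves, Sesn2, and Tap1 (0.55), a peptide transporter of antigen presentation. Ltbr had 43.1 ± 1.49 CPM in HFCS and 19.6 ± 4.31 CPM in control libraries (edgeR adjusted p = 1.0e-04). The lowest were Ckap2 (-0.66), a spindle gene, Ak1 (-0.60), an adenylate kinase gene, and Dcxr (-0.56), a carbonyl reductase gene. Plk2 (0.61), a polo-like kinase gene, lay below that level, and its call was lost without HFCS replicate 1 (edgeR adjusted p = 0.0764), HFCS replicate 3 (0.0694) or control replicate 3 (0.08).

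By role, with these genes chosen after their values were seen, the cell death genes Bax, Apaf1 and Pidd1 rose by 0.46, 0.41 and 0.46 on the log2 scale. The pore-forming BAX message had 267 ± 24.3 against 194 ± 25.7 CPM (edgeR adjusted p = 0.00344). The death receptor genes Fas (0.45) and Tnfrsf10b (0.46) also passed, but Fas did not without HFCS replicate 2 (edgeR adjusted p = 0.0639) or HFCS replicate 3 (0.0522). Tnfrsf10b did not without HFCS replicate 1 (0.0842), HFCS replicate 2 (0.0563) or control replicate 3 (0.073). Bbc3 and Pmaip1, which code for the BH3-only killers PUMA and NOXA, were at 0.20 and 0.14 and did not pass, at edgeR adjusted p-values of 0.397 and 0.103. Eda2r (-0.27), another death receptor gene, Aen (0.28), a nuclease gene, and Ei24 (0.20) did not pass either. Without control replicate 1, which stood apart, 4 of these 5 passed, Bbc3 at 0.51 (edgeR adjusted p = 6.8e-05), Aen at 0.47 (6.8e-05), Ei24 at 0.29 (1.0e-03) and Eda2r at -0.37 (0.00692). Of the DNA repair genes, Xpc (0.42) and Ercc5 (0.36) rose, while Ddb2 (0.00), Polk (-0.14) and Rrm2b (0.26) did not pass. Rrm2b passed without HFCS replicate 2, at 0.36 (edgeR adjusted p = 0.0346), and Polk without control replicate 1, at -0.20 (0.0269). Tigar (0.43), which limits glycolysis, rose.

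Regulators of p53 moved both ways, with 6 of 22 tested genes higher, 6 lower and 10 not called, and a median of 0.03. Cdkn2a and Twist1 were also listed but were not found by symbol in the count table. The share called was 54.5%, beside 44.9% of all tested genes, and with 22.4% of those higher and 22.5% lower the counts are near the background. Daxx (0.58), Trp53bp2 (0.53) and the acetyltransferase gene Crebbp (0.51) rose. Atm, the kinase gene that signals DNA breaks to p53, had 241 ± 8.93 against 375 ± 42 CPM and fell, with a log2 change of -0.64 ± 0.08 (edgeR adjusted p = 1.6e-04). Usp7 (-0.61), which codes for the protease that removes ubiquitin from MDM2 and p53, and Ybx1 (-0.61) fell as well.

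Of 20 tested partners and known inducers of GADD45 genes, 7 rose, 5 fell and 8 did not pass, which is 60.0% called beside 44.9% of all tested genes. Tdg (0.95), the DNA glycosylase gene of active demethylation, and the inducer genes Atf4 (0.92) and Rela (0.90) rose. Rela, an NF-kB subunit gene, had 70.2 ± 5.76 against 37.7 ± 1.86 CPM (edgeR adjusted p = 2.2e-05), while Gadd45b was at the lower level in the same libraries. The kinase pair that GADD45 proteins bind, Cdk1 (-0.51) and Ccnb1 (-1.04), fell. Both are mitotic genes, and Ccnb1 also stands in the last list below. A fall of mitotic genes in these libraries was already known, so these 2 calls are no separate evidence. Foxo3 (-0.24) fell too, but not without HFCS replicate 1 (edgeR adjusted p = 0.078) or HFCS replicate 3 (0.0692). The 5 lower calls became 2 without HFCS replicate 1 and 3 without HFCS replicate 2, HFCS replicate 3 or control replicate 2. Egr1, with 4 counts in all HFCS and 0 in all control libraries, was too low to test.

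The last list held genes that p21 is known to silence through the DREAM repressor complex, most of them mitotic genes, and subunits of DREAM or related complexes. Of its 32 genes, all tested, 23 were called lower, 3 higher and 6 not, with a median of -0.54, and 81.2% were called beside 44.9% of all tested genes. Split after the values were seen, the 26 silenced genes had 22 lower calls and 4 that did not pass, with a median of -0.62, and the 6 subunits had 1 lower and 3 higher calls. Cenpf (-1.34) and Cenpa (-1.06), both of the centromere, and Ccnb1 were the lowest. Cenpf had 70.9 ± 1.76 against 180 ± 17 CPM (edgeR adjusted p = 8.6e-07). Of the subunits, E2f4 (0.68), Rbl1 (0.40) and Lin54 (0.24) rose, Lin52 (-0.53) fell, and Rbl2 (-0.19) and Lin9 (-0.22) did not pass. Rbl2 passed without control replicate 1, at -0.25 (edgeR adjusted p = 0.00654). Lin54 lost its call with the removal of HFCS replicate 2 (edgeR adjusted p = 0.0825), HFCS replicate 3 (0.123), control replicate 1 (0.0639) or control replicate 2 (0.0565). The list was drawn up with a fall of mitotic genes in these libraries already known, so its direction is no separate evidence.

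**Figure D4:**
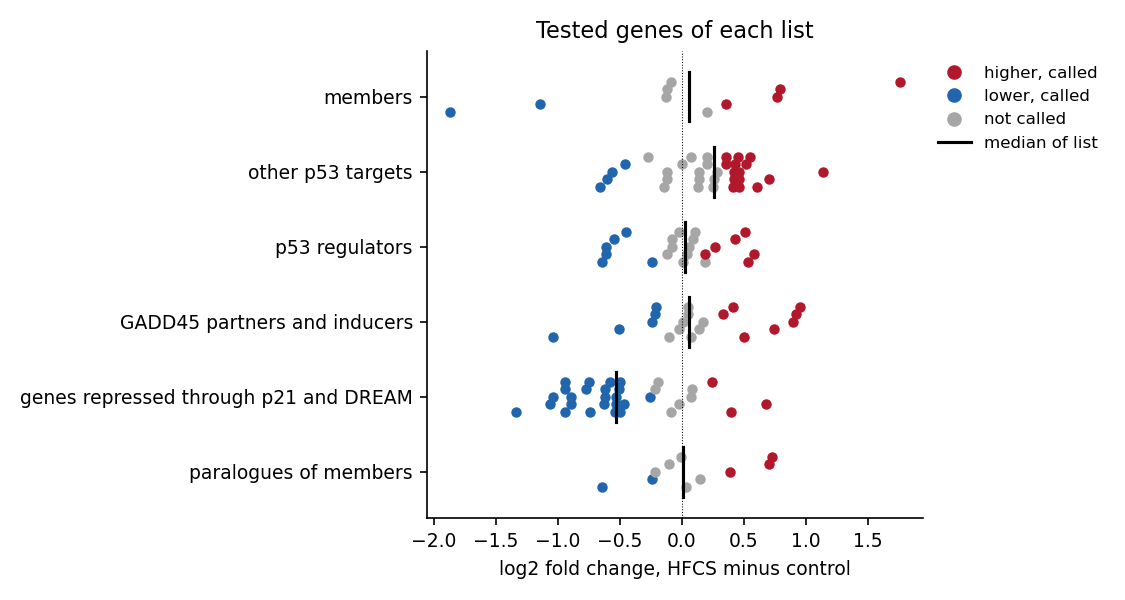
Log2 fold changes, HFCS minus control, of the tested genes of each list; each point is a gene, coloured by its call at an adjusted p of 0.05, and black bars are medians. Medians are 0.05 for the members, 0.26 for other p53 targets and -0.54 for genes repressed through p21 and DREAM.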

How the data were processed

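RNA sequencing counts were available for 6 libraries, 3 labelled HFCS and 3 labelled WT. Per the file headers, the deposited table gives unnormalised counts of reads for each gene. CASAVA, HISAT2 2.0.5 and featureCounts 1.5.0-p3 with build mm10 are listed in the submitters' processing notes, while neither the annotation release nor the strand setting is given in the sources used here. Symbols were matched for 24344 of 24379 identifiers, and 23705 identifiers (97.2%) had the coordinates of GENCODE M21, from which exon lengths were taken.

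edgeR 4.0.16 (R 4.3.3) kept 14360 genes (filterByExpr, minimum count 10), scaled libraries by TMM and compared the groups with glmQLFit and glmQLFTest, with Benjamini-Hochberg adjustment over all tested genes and no covariate. An adjusted p under 0.05 counted as a call. The SE is the size of the log2 fold change divided by the square root of F. The fit was tested on simulated data. Ratios between members used log2 of counts plus 0.5 and a two-sided exact permutation test. Reads were counted without molecular identifiers, and 3 counts correspond to 0.196 to 0.229 CPM per library.

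The members and gene lists were chosen with earlier results of these data known. Named genes were the 10 members, their paralogues, and the 3 highest and 3 lowest called genes of each list with a mean of at least 5 CPM and groups that did not overlap. Alternatives were other scalings, DESeq2 1.42.0, limma-voom (limma 3.58.1), other filters, the replicate number as a block and each library left out.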

Additional observations from a re-analysis of the deposited data

How the results depend on the processing

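Over 14 alternatives each, the 6 called members kept their direction and passed in every one, with log2 fold changes of 0.33 to 0.44 for Trp53, 0.73 to 0.91 for Cdkn1a, 0.67 to 0.93 for Phlda3, 1.70 to 1.85 for Gadd45a, -1.17 to -1.06 for Sesn1 and -1.94 to -1.74 for Gadd45b. Of 140 values for members, 135 kept their call. The exceptions were Ccng1, which passed with library size alone (0.28), with no filter on low counts (0.23), with the replicate number as a block (0.20, edgeR adjusted p = 0.0267) and in 1 of the leave-one-out fits (0.11 to 0.27), and Trp53inp1 in 1 of them (-0.24 to 0.01). Of 448 values for the 32 other genes named by rule, 433 kept their call and none reversed, the other 15 being Mdm4, Foxo3 and Lin54 in the leave-one-out fits named above, Mdm4 (-0.16) and Foxo3 (-0.16) with library size alone, and Lin54 with upper-quartile scaling (0.21) and DESeq2 (0.24). The lower calls among GADD45 partners and inducers were 2 with library size alone, 3 with no filter and 2 to 5 with 1 library left out, and those among paralogues were 1 with library size alone and 1 to 2 with 1 library left out. Calls over all genes numbered 5115 to 7550 with 1 library left out. Whether the replicate numbers pair the libraries is not known. Deviations of same-numbered libraries correlated at 0.167, -0.064 and 0.191, and those of other pairs at -0.300 to 0.163. HFCS replicates 1 and 3 correlated best with the control library of the same number, and HFCS replicate 2 with control replicate 1. Correlations this weak, from 3 libraries per group, cannot decide it. With the replicate number as a block 7152 genes were called, against 6447 without it. The block changed no other member's call, but Bbc3 (0.24), Aen (0.30), Ei24 (0.21), Rrm2b (0.26) and Rbl2 (-0.19) passed with it. With library size alone Aen (0.36), Ei24 (0.28), Rrm2b (0.34) and Pmaip1 (0.22) passed, with no filter Aen (0.31), Ei24 (0.24) and Rrm2b (0.30), with upper-quartile scaling Rbl2 (-0.22), and Plk2 (0.60) did not pass with DESeq2. Pairing by number as a block cannot move the differences of the 4 ratios (3.61, 0.43, -0.45 and -0.59), so it is no check of them, and 3 pairs cannot give a p below 0.25. Gadd45a, Gadd45g and Phlda1 rest on few counts, which limits their precision.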
